A study of Mus musculus with 18 samples.

Results

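The p53 target genes examined here were Cdkn1a, Mdm2, Bax, Ccng1, Trp53inp1, Sesn1, Fas, Zmat3, Ei24 and Rrm2b. Each gene was read through the probe set that carried its symbol alone in the platform annotation, and by the brightest one over all arrays where a gene had several. In all, 9 of the 10 genes had such a probe set, each exactly 1, among 22180 genes that could be read in this way; Bax was not analysed here. The transcription factor p53 is held low by the ubiquitin ligase Mdm2 and accumulates after DNA damage and other stresses, when it switches on genes that halt the cell cycle, repair DNA, restrain growth signalling or kill the cell. Several of its targets also answer to other factors, and in skeletal muscle the cell cycle inhibitor Cdkn1a is known for being switched on as myoblasts leave the cell cycle and fuse. As background, Mdm2 and Ccng1 act back on p53, so that a rise of either can follow p53 activity and also limit it.

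Expression was measured in C2C12 cells, an established mouse myoblast line that forms myotubes in low serum, on 18 one-colour arrays. The 6 Nup210 shRNA arrays were from cells given a lentivirus with a short hairpin RNA against the nuclear pore glycoprotein Nup210, the 6 Mef2c shRNA arrays from cells given one against the muscle transcription factor Mef2c, and the 6 control shRNA arrays from cells given a scramble hairpin. All 3 groups had been grown in 20% fetal bovine serum, shifted to 2% horse serum, infected 36 h after that shift and collected 48 h after infection, so that the controls carry lentivirus and hairpin too. The labels name 1 hairpin specificity per group, give no uninfected cells and do not state that replicate arrays were separately grown, so the tests weigh differences against array-to-array spread, part or all of which may be technical.

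Values are log2 expression levels as deposited, on which a difference of 1 is a doubling, and levels are compared only within a gene. Array medians lay between 5.48 and 5.57, and arrays of a group correlated at 0.991 to 0.995 over genes. Mef2c checked the labels of its group: it had a lowest, median and highest level of 7.51, 7.97 and 8.08 in Mef2c shRNA arrays, against 10.10, 10.42 and 10.54 in control arrays. The log2 difference was -2.48 ± 0.10 (SE), with an exact two-sided permutation p = 0.00216 for n = 6 against 6, the smallest that the 924 splits allow (adjusted p = 0.00864 over 4 tests). Nup210 overlapped between its group and control: its levels were 5.54, 5.63 and 5.79 in Nup210 shRNA arrays, against 5.57, 5.79 and 5.81 in control arrays (log2 difference -0.10 ± 0.064 SE, exact permutation p = 0.0801, adjusted p = 0.107). Control array 6, at 5.57, stood below the other control arrays (5.75 to 5.81), and without it the log2 difference was -0.14 (limma adjusted p = 0.229). Set against the Mef2c shRNA arrays (5.79 to 6.08), the Nup210 shRNA arrays were lower by a log2 difference of -0.23 (limma over all probe sets, adjusted p = 0.0187). Part of this difference lay in the Mef2c shRNA arrays, where Nup210 was above the control mean in 6 of 6 arrays. Their log2 difference from control was 0.13 ± 0.064 SE (exact permutation p = 0.0411, adjusted p = 0.0822). The Nup210 probe set lay close to a guide to background, the 95th percentile (5.47) of the mean levels of 1394 olfactory and vomeronasal receptor genes. All 9 p53 targets lay above that guide. The arrays are called by their labels, and directions drawn from the arrays labelled Nup210 shRNA rest on the label. All 10 myotube markers were above the same guide, as were 9 of 9 cycling cell, 8 of 10 reserve and satellite cell and 7 of 8 fibroblast markers, 3 of 8 macrophage and 1 of 6 endothelial markers, and the defining markers Ptprc and Pecam1 were below it.

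Of the p53 targets, Ccng1, Trp53inp1, Ei24 and Rrm2b differed from control under both hairpins, Ei24 in opposite directions. In the Nup210 shRNA arrays Ccng1, Trp53inp1 and Zmat3 rose and Ei24 and Rrm2b fell, by 0.24 to 0.55 on the log2 scale. In the Mef2c shRNA arrays Ccng1, Trp53inp1, Sesn1, Fas and Ei24 rose, by 0.17 to 0.51, and Rrm2b fell by 0.19. Cdkn1a and Mdm2, the targets most often used to read p53 activity, passed the test under neither hairpin. A gene counted as called where limma gave it a Benjamini-Hochberg adjusted p under 0.05 over all genes, which held for 5 of 9 members (55.6%) for Nup210 shRNA and 6 of 9 (66.7%) for Mef2c shRNA. Over all genes tested, 8.16% were called for Nup210 shRNA (3.05% higher and 5.11% lower) and 10.8% for Mef2c shRNA (4.34% higher and 6.42% lower). These shares include dim genes, whereas all 9 members lay above the background guide, as did 58.7% of all genes. Fitted alone, genes above the guide had 930 rises and 1432 falls for Nup210 shRNA. For Mef2c shRNA they had 1241 and 1777. The share called among them was thus larger under either hairpin. On centred array medians the 963 rises and 1423 falls over all genes for Mef2c shRNA became 592 and 1601, while the members had 4 rises and 1 fall. The arrays did not overlap with the control arrays for 5 members under each hairpin, against 5.63% of all genes for Nup210 shRNA and 7.74% for Mef2c shRNA. In these bulk samples, fewer cells of a type and less RNA per cell cannot be told apart. Nup210 shRNA arrays 2, 4 and 5 had the lowest weights of that group. Without them, 1 member was called higher and 1 lower for Nup210 shRNA. Over all genes, 676 rises and 1133 falls then became 153 and 410. Without control arrays 4 and 6, 3 members were higher and 1 lower for Nup210 shRNA, beside 379 rises and 724 falls over all genes. For Mef2c shRNA 3 were higher and 0 lower, beside 537 and 883. Control arrays 4 and 6 were not the 2 of lowest weight in their group (0.94 and 1.04, against 0.996 for control array 5). The median log2 difference of the members was 0.14 for Nup210 shRNA and 0.23 for Mef2c shRNA, against 0.015 and 0.020 over all genes. Both comparisons use the same 6 control arrays.

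**Figure D1:**
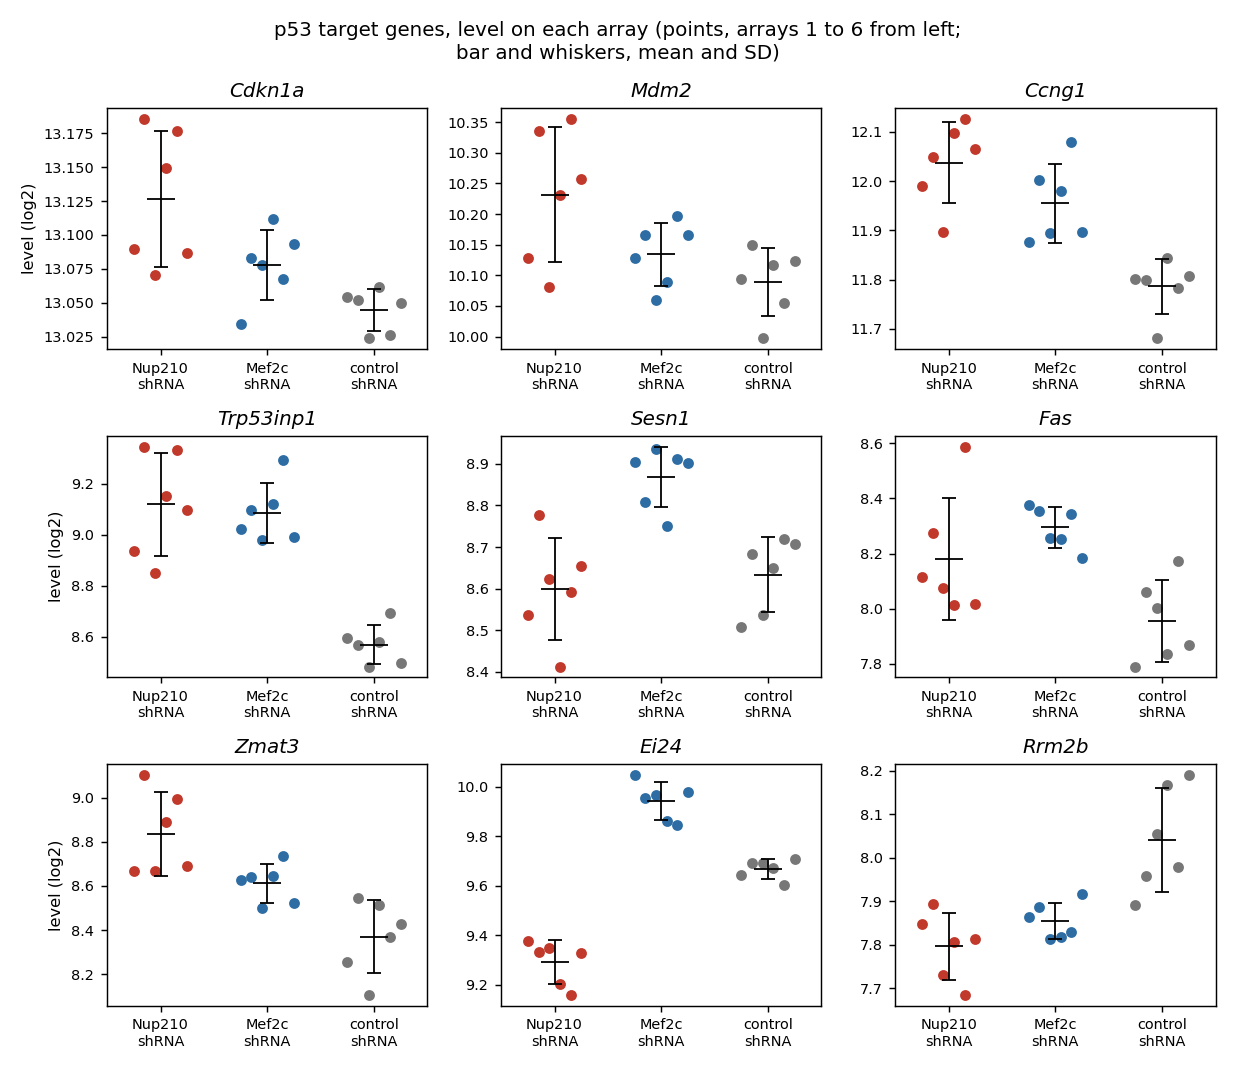
Level on the log2 scale (vertical axis, its own range for each gene) of the 9 p53 target genes on every array, with Nup210 shRNA, Mef2c shRNA and control shRNA from left to right; points are arrays 1 to 6, and the bar and whiskers are the mean and SD of 6 arrays. Trp53inp1 is above all control arrays in both hairpin groups, and Ei24 lies below the control arrays in the Nup210 shRNA group and above them in the Mef2c shRNA group.

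Trp53inp1 had the largest rise of any member under both hairpins. It encodes a stress-induced nuclear protein that promotes p53 phosphorylation and also acts in autophagy. Its lowest, median and highest levels were 8.85, 9.12 and 9.35 in Nup210 shRNA arrays, against 8.48, 8.57 and 8.70 in control arrays. No Nup210 shRNA array reached down to the highest control array, and the log2 difference was 0.55 ± 0.080 (SE), or 1.46-fold (limma adjusted p = 0.00023, higher in 6 of 6 arrays). In Mef2c shRNA arrays the levels were 8.98, 9.06 and 9.29, again above every control array, with a log2 difference of 0.51 ± 0.080 or 1.43-fold (limma adjusted p = 0.00027, higher in 6 of 6 arrays). The gap between the closest arrays of the groups was 0.16 for Nup210 shRNA and 0.29 for Mef2c shRNA. These calls were kept under all 32 alternatives run.

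Zmat3 rose in the Nup210 shRNA arrays, and its difference in the Mef2c shRNA arrays did not pass. It encodes a zinc-finger protein that binds RNA and alters transcript stability and splicing. Levels were 8.67, 8.79 and 9.10 in Nup210 shRNA arrays, against 8.11, 8.40 and 8.55 in control arrays. The groups did not overlap, and the log2 difference was 0.47 ± 0.085 (SE), or 1.38-fold (limma adjusted p = 0.00174). Without Nup210 shRNA arrays 2, 4 and 5 it was 0.31 and no longer called (adjusted p = 0.075). With Mef2c shRNA the levels were 8.50, 8.63 and 8.74, which overlapped the control range, with a log2 difference of 0.24 ± 0.085 (limma adjusted p = 0.0802), above the control mean in 6 of 6 arrays. That difference passed with dim genes left out (adjusted p = 0.0399), with a trended robust prior (0.0453) and in the fit without Nup210 shRNA arrays 2, 4 and 5 (0.0322).

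Ccng1 rose under both hairpins. It encodes cyclin G1, which brings the phosphatase PP2A to Mdm2. Levels were 11.90, 12.06 and 12.13 in Nup210 shRNA arrays, against 11.68, 11.80 and 11.84 in control arrays. Every Nup210 shRNA array was above every control array, with a log2 difference of 0.25 ± 0.048 (SE), or 1.19-fold (limma adjusted p = 0.00222; 0.20 and adjusted p = 0.0865 without Nup210 shRNA arrays 2, 4 and 5). In Mef2c shRNA arrays levels were 11.88, 11.94 and 12.08, also clear of the control range, with a log2 difference of 0.17 ± 0.048, or 1.12-fold (limma adjusted p = 0.0272). The Mef2c shRNA call did not survive the removal of Mef2c shRNA array 2 (adjusted p = 0.061), 4 (0.0548) or 5 (0.0668) or of control array 3 (0.067), nor held without control arrays 4 and 6, where the log2 difference was 0.19 (0.053), or with each array centred on its median, where it was 0.14 (0.0584).

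Cdkn1a, which encodes the cyclin-dependent kinase inhibitor p21, was high and nearly level across the 3 groups. Its levels were 13.07, 13.12 and 13.19 in Nup210 shRNA arrays, against 13.02, 13.05 and 13.06 in control arrays. The 2 sets of arrays did not overlap, with a gap of 0.0090 between the closest, and the log2 difference of 0.08 ± 0.033 (SE), or 1.06-fold, did not pass (limma adjusted p = 0.151). Its 95% confidence interval, not adjusted for the number of genes, ran from 0.013 to 0.15. A trended robust prior called the difference (adjusted p = 0.0136). With Mef2c shRNA the levels were 13.03, 13.08 and 13.11, with a log2 difference of 0.03 ± 0.033 (adjusted p = 0.612) and a 95% confidence interval from -0.035 to 0.10. The highest value of any probe set on any array was 13.7, so Cdkn1a was read near the top of the scale.

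Mdm2, the ubiquitin ligase that marks p53 for breakdown, did not pass either. Levels were 10.08, 10.24 and 10.36 in Nup210 shRNA arrays, against 9.997, 10.11 and 10.15 in control arrays. The groups overlapped through Nup210 shRNA arrays 1 and 3, and the log2 difference was 0.14 ± 0.049 (SE; limma adjusted p = 0.0888), which passed without Nup210 shRNA array 3 (0.17, adjusted p = 0.0298), with dim genes left out (adjusted p = 0.039) and with a trended robust prior (0.0279). For Mef2c shRNA arrays the levels were 10.06, 10.15 and 10.20, with a log2 difference of 0.04 ± 0.049 (adjusted p = 0.656) and an interval from -0.058 to 0.15. The gene that stands closest to Mdm2 in function, Mdm4, a partner that blocks p53 without marking it for breakdown, had a log2 difference of 0.18 ± 0.076 in Nup210 shRNA arrays (adjusted p = 0.187) and 0.05 ± 0.076 in Mef2c shRNA arrays (adjusted p = 0.765).

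Promoter sequences are given for Cdkn1a and Ccng1, the members whose sequence before a gene start holds a full p53 site, and for Ei24, the member that moved in opposite directions. A p53 full site is a pair of p53 half-sites, each a decamer of the p53 consensus, which reads the same on both strands; here the half-sites could lie 0 to 13 bases apart with at most 1 mismatch in all. RefSeq starts of mouse assembly GRCm38.p6 were matched by symbol for 6 of the 9 measured members, with 8 windows of 250 bases, and Trp53inp1, Zmat3 and Rrm2b had none. The sequences run 5′ to 3′ on the strand of the gene, ending at the base before the start, and capitals mark half-sites, including those of a full site.
Cdkn1a, upstream start, chr17:29090729-29090978, plus strand: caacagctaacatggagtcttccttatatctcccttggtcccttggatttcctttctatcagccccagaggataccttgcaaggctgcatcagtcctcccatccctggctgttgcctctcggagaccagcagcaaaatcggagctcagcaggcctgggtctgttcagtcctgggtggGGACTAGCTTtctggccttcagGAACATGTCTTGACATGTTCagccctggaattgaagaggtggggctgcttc
Ccng1, chr11:40755287-40755536, minus strand: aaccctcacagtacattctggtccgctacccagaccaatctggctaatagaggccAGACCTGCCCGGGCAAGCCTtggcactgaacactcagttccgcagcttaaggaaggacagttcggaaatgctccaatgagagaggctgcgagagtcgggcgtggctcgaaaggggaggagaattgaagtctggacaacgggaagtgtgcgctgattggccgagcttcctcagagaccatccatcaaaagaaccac
Ei24, chr9:36797335-36797584, minus strand: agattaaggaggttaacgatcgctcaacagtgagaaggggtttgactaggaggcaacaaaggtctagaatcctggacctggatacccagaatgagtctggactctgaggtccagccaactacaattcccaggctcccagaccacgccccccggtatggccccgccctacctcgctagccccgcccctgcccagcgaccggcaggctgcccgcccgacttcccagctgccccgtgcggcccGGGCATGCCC
The Cdkn1a window holds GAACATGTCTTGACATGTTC at chr17:29090928-29090947, with 1 mismatch and no spacer, and a half-site before it that forms a full site without mismatch at a spacing of 12 bases. These letters lie 2822 bases before the other annotated Cdkn1a start, whose own window holds no half-site. The Ccng1 window holds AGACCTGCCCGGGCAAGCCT at chr11:40755462-40755481, with 1 mismatch and no spacer. The Ei24 window ends in the single half-site GGGCATGCCC. Half-sites without mismatch were in 5 of the 8 windows of members (5 of the 6 members) and in 7.13% of all 32851 windows of that length. Full sites were in 1 window of each of 2 members and in 0.898% of all windows. A member with 2 windows has more chances of a match than a single window. The members were listed as p53 targets, so their share of sites is no independent test of that status. The hexamer ACATGT, chosen after the Cdkn1a site had been read, occurs 2 times in that window, overlaps both decamers of the site, reads the same on both strands, and is found at least 2 times in 0.247% of windows. A match of letters is a description and does not show binding; Ccng1 with a full site rose under both hairpins, while Cdkn1a with a full site passed the test under neither.

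Sesn1 rose in the Mef2c shRNA arrays, and no difference was detected in the Nup210 shRNA arrays. It encodes sestrin 1, which restrains the growth kinase complex mTORC1. Its levels were 8.75, 8.90 and 8.93 in Mef2c shRNA arrays, all above the control range of 8.51 to 8.72 (median 8.67). The log2 difference was 0.23 ± 0.058 (SE), or 1.18-fold (limma adjusted p = 0.0124, higher in 6 of 6 arrays). In Nup210 shRNA arrays levels were 8.41, 8.61 and 8.78 and straddled the control range, with a log2 difference of -0.03 ± 0.058 (adjusted p = 0.817) and an interval from -0.16 to 0.088. Its relatives Sesn2 and Sesn3 had other patterns, given below with their lists.

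Fas also rose in the Mef2c shRNA arrays. It encodes the cell-surface death receptor that activates caspase 8. Its levels were 8.18, 8.30 and 8.38 in Mef2c shRNA arrays, against 7.79, 7.94 and 8.17 in control arrays. The groups were separated by a gap of 0.012, and the log2 difference was 0.34 ± 0.088 (SE), or 1.27-fold (limma adjusted p = 0.0171; 0.29 and adjusted p = 0.112 without control arrays 4 and 6). In Nup210 shRNA arrays levels were 8.01, 8.10 and 8.59, where array 5 was the highest and the next reached 8.27, and the log2 difference of 0.23 ± 0.088 did not pass (adjusted p = 0.144), although all 6 arrays lay above the control mean.

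Ei24 was the only one of the 9 members called in opposite directions under the 2 hairpins. It encodes a membrane protein of the endoplasmic reticulum that takes part in autophagy. Its levels were 9.16, 9.33 and 9.38 in Nup210 shRNA arrays, 9.84, 9.96 and 10.05 in Mef2c shRNA arrays and 9.60, 9.68 and 9.71 in control arrays. The 3 groups did not overlap: every Nup210 shRNA array was below every control array, and every Mef2c shRNA array above them. The log2 difference from control was -0.38 ± 0.046 (SE), or 77.0% of the control level, in Nup210 shRNA arrays (limma adjusted p = 4.86e-05) and 0.27 ± 0.046, or 1.21-fold, in Mef2c shRNA arrays (limma adjusted p = 0.000602). Set directly against Mef2c shRNA arrays, Nup210 shRNA arrays were lower by a log2 difference of -0.65 ± 0.046 (limma adjusted p = 3.86e-08). All 3 calls of Ei24 were kept under the 32 alternatives run.

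Rrm2b fell under both hairpins. It encodes p53R2, the small subunit of ribonucleotide reductase that supplies deoxynucleotides outside S phase. Its levels were 7.68, 7.81 and 7.89 in Nup210 shRNA arrays, against 7.89, 8.02 and 8.19 in control arrays. Control array 1 was the lowest control, just under the highest Nup210 shRNA array, and the log2 difference was -0.24 ± 0.053 (SE), or 84.4% of control (limma adjusted p = 0.00612). It was as large (-0.243) but not called (adjusted p = 0.063) after removal of Nup210 shRNA arrays 2, 4 and 5. Without control arrays 4 and 6 it was -0.175 (adjusted p = 0.0517). Control arrays 4 and 6 held the highest control levels of Rrm2b (8.17 and 8.19), so leaving them out makes its fall smaller under either hairpin. In Mef2c shRNA arrays levels were 7.81, 7.85 and 7.92, with a log2 difference of -0.19 ± 0.053, or 88.0% of control (limma adjusted p = 0.0287). It missed the threshold once Mef2c shRNA array 3 (adjusted p = 0.0579), 4 (0.0594) or 5 (0.0565) was removed, once control array 3 (0.0527), 4 (0.0752) or 6 (0.0747) was, without control arrays 4 and 6 together (-0.12, adjusted p = 0.206) and in the unequal-variance test (0.0823).

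**Figure D2:**
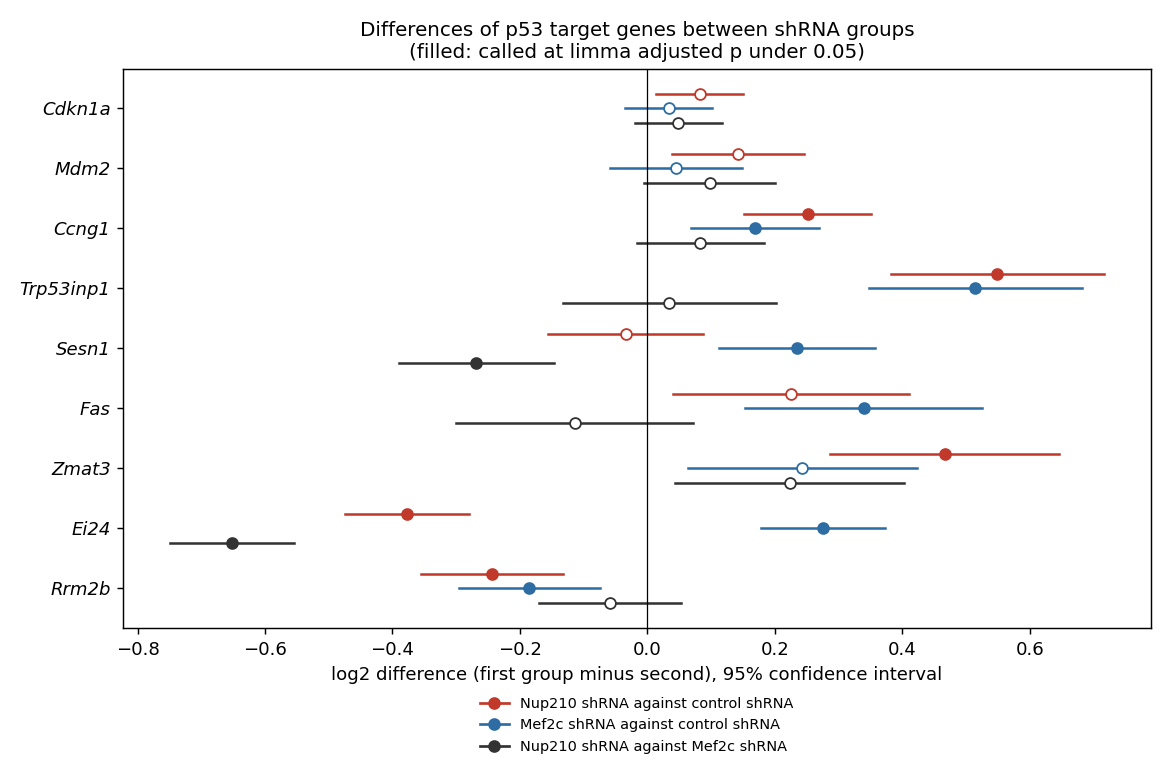
Log2 difference (horizontal axis) of each p53 target gene for Nup210 shRNA against control shRNA, Mef2c shRNA against control shRNA and Nup210 shRNA against Mef2c shRNA; circles are estimates, filled where the limma adjusted p was under 0.05, and lines are 95% confidence intervals. Trp53inp1 has differences of 0.55 and 0.51 from control, Ei24 has -0.38 and 0.27, and Sesn1 and Ei24 are the filled circles of the direct comparison.

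Between the hairpin groups, Ei24 and Sesn1 were the members that differed, both lower in the Nup210 shRNA arrays. Sesn1 was at 83.0% of its Mef2c shRNA level there (log2 difference -0.27 ± 0.058 SE, limma adjusted p = 0.00328), below the Mef2c shRNA mean in 6 of 6 arrays. These 2 of 9 members (22.2%) stand beside 14% of all genes called, 6.93% lower, and the arrays of 1 member did not overlap, against 8.62% of all genes. Fitted alone, genes above the background guide had 1848 rises and 1784 falls, a larger share than 14%. The 22.2% is thus not read as an excess. By limma 0 members were called higher, beside 7.1% of all genes, and 0 by the unequal-variance test; at an unadjusted limma p under 0.05 there was 1, Zmat3 (log2 difference 0.22 ± 0.085, limma adjusted p = 0.0994). Trp53inp1 differed by 0.03 ± 0.080 with an interval from -0.13 to 0.20, and its sign turned without Nup210 shRNA array 2 or 5. Cdkn1a (interval from -0.020 to 0.12), Mdm2 (-0.0054 to 0.20), Ccng1 (-0.017 to 0.18), Fas (-0.30 to 0.071) and Rrm2b (-0.17 to 0.052) did not pass, and these intervals do not show that they were alike.

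Within the groups some members spread together and others did not. Nup210 shRNA arrays 2 and 5 held the highest or second highest level of Cdkn1a, Mdm2, Trp53inp1, Fas and Zmat3 in that group. Array 3 was the lowest of its group in all 3 groups for Mdm2, Trp53inp1 and Zmat3, and in 14 of the 27 combinations of a member with a group. Over the 18 arrays, the Pearson correlation of levels was 0.912 between Trp53inp1 and Ccng1, 0.861 between Mdm2 and Zmat3 and 0.859 between Cdkn1a and Zmat3, and 0.775, 0.787 and 0.678 after group means were removed. Ei24 ran the other way within groups, at -0.682 with Trp53inp1 and -0.698 with Ccng1. Sesn1 and Rrm2b showed little relation to several members within groups: Sesn1 was at -0.016 with Cdkn1a and -0.064 with Ccng1, and Rrm2b at 0.068 with Cdkn1a and 0.0031 with Ccng1. These values describe arrays that share group means, normalization and, within a group, the same hairpin. Nup210 shRNA array 5 was at the same time the lowest array for Ei24 and Rrm2b. The weights that limma estimated for the arrays were 0.724, 0.621 and 0.744 for Nup210 shRNA arrays 2, 4 and 5, the lowest of all 18; their part in these results was measured only by leaving them out.

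**Figure D3:**
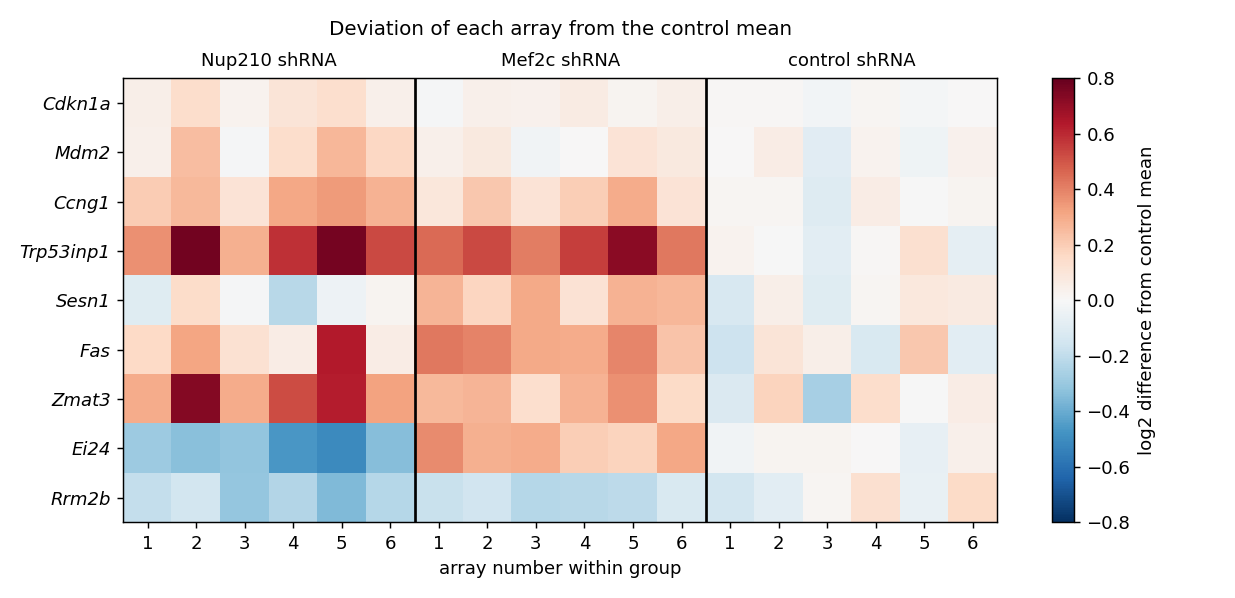
Deviation of every array (columns, numbered within Nup210 shRNA, Mef2c shRNA and control shRNA) from the control mean of each p53 target gene (rows), on the log2 scale shown by colour, red above and blue below. Trp53inp1 is red on all 12 hairpin arrays, Ei24 is blue on 6 and red on 6, and Nup210 shRNA arrays 2 and 5 are the reddest for Trp53inp1 and Zmat3.

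Of 26 other measured p53 targets, 9 rose and 2 fell in the Nup210 shRNA arrays, against 3 rises and 0 falls in the Mef2c shRNA arrays. These are 42.3% of the 26 for Nup210 shRNA, beside 8.16% of all genes, and 11.5% for Mef2c shRNA, beside 10.8% of all genes. All 26 lay above the background guide, where a larger share of genes was called under either hairpin. The 11.5% is thus not read as level with the share of genes above the guide. The largest rise for Nup210 shRNA was that of Psrc1, a spindle protein, with levels of 6.90, 7.20 and 7.38 in Nup210 shRNA arrays, against 6.31, 6.55 and 6.69 in control arrays, and no overlap (log2 difference 0.66 ± 0.080 SE, limma adjusted p = 4.61e-05). In Mef2c shRNA arrays Psrc1 had a log2 difference of 0.02 ± 0.080 (adjusted p = 0.932), and the direct comparison of Nup210 shRNA with Mef2c shRNA gave 0.64 (adjusted p = 2.1e-05). Next were Slc19a2, a thiamine transporter, at 0.57 ± 0.11 (adjusted p = 0.00318), and the sestrin Sesn2 at 0.39 ± 0.091 (adjusted p = 0.0107). The falls were of the polo-like kinase Plk3 (-0.24 ± 0.059, adjusted p = 0.0162) and the ferrireductase Steap3 (-0.24 ± 0.053, adjusted p = 0.0087). Without Nup210 shRNA arrays 2, 4 and 5, 1 of the 26 was called higher and 0 lower. Over all genes, 676 rises and 1133 falls then became 153 and 410. The calls of Slc19a2 (0.35, adjusted p = 0.141) and Sesn2 (0.21, adjusted p = 0.297) were lost. So were those of Plk3 (-0.23, adjusted p = 0.142) and Steap3 (-0.20, adjusted p = 0.116). Without control arrays 4 and 6 there were 7 rises and 0 falls, with Plk3 at -0.15 (adjusted p = 0.109) and Steap3 at -0.21 (adjusted p = 0.064); the unequal-variance test did not call Sesn2 (0.0696) or Plk3 (0.0745).

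In the Mef2c shRNA arrays the 3 rises among those 26 targets were of Dcxr, a carbonyl reductase, at 0.35 ± 0.075 SE (limma adjusted p = 0.00435), the nuclear body protein Pml at 0.27 ± 0.063 (adjusted p = 0.00873) and the growth inhibitor Btg2 at 0.22 ± 0.053 (adjusted p = 0.00917). Pml ranged from 8.82 to 9.05 in Mef2c shRNA arrays and from 8.54 to 8.76 in control arrays, without overlap, and Dcxr from 6.46 to 6.85 against 6.13 to 6.57. No fall was called by limma or by the unequal-variance test, and 1 target was lower at an unadjusted p under 0.05. Dcxr and Btg2 were also called higher for Nup210 shRNA, at 0.34 (limma adjusted p = 0.00672) and 0.26 (limma adjusted p = 0.00448). Pml was not, at 0.04 (limma adjusted p = 0.771). The median log2 difference of the 26 was 0.10 for Nup210 shRNA and 0.059 for Mef2c shRNA.

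No gene among 19 regulators of p53 was called in the Nup210 shRNA arrays, by limma or by the unequal-variance test, with 1 higher and 1 lower at an unadjusted p under 0.05, beside 8.16% of all genes called. All 19 lay above the background guide, where a larger share of genes was called under either hairpin. In so short a list this lack of calls is not read further. In the Mef2c shRNA arrays 2 rose and 2 fell (21.1% called, beside 10.8% of all genes). As the listed genes all lay above the guide, this is not read as an excess. The kinase Hipk2, which phosphorylates p53, was at 9.78 to 9.96 in Mef2c shRNA arrays and 9.55 to 9.67 in control arrays (log2 difference 0.26 ± 0.041 SE, limma adjusted p = 0.000359), and the acetyltransferase Ep300 differed by 0.17 ± 0.044 (adjusted p = 0.0137; 0.17 and adjusted p = 0.0567 without control arrays 4 and 6). The checkpoint kinase Chek1 had levels of 5.74, 5.90 and 6.17 in Mef2c shRNA arrays, against 6.27, 6.48 and 6.79 in control arrays (log2 difference -0.58 ± 0.094, limma adjusted p = 0.000449). Chek2 fell by 0.26 ± 0.074 (limma adjusted p = 0.026) and missed the threshold without Mef2c shRNA array 5 (0.0653), without control array 2 (0.0503), 4 (0.0634) or 6 (0.057), without control arrays 4 and 6 together (0.161) and in the unequal-variance test (0.0658). Without control arrays 4 and 6 the list had 1 rise and 1 fall. Over all genes, 963 rises and 1423 falls then became 537 and 883. Of 9 cycling cell markers, 8 also fell in Mef2c shRNA arrays, with a median of -0.66, and the log2 of their summed level was 10.37 to 10.67 there, against 11.002 to 11.39 in control arrays; 0 rose and 1 fell in Nup210 shRNA arrays, where the sum was 11.02 to 11.20. The part of cycling cells in the checkpoint kinase differences was not tested.

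Among 20 partners and relatives of the members, 2 rose and 3 fell in the Nup210 shRNA arrays, and 2 rose and 6 fell in the Mef2c shRNA arrays. The shares called were 25% for Nup210 shRNA and 40% for Mef2c shRNA, beside 8.16% and 10.8% of all genes. Of the 20 genes, 19 lay above the background guide, where a larger share of genes was called under either hairpin. Ccng2, the relative of Ccng1, had levels of 8.37, 8.45 and 8.48 in Nup210 shRNA arrays, against 7.92, 8.16 and 8.22 in control arrays (log2 difference 0.32 ± 0.050 SE, limma adjusted p = 0.000432), and differed by 0.0014 in Mef2c shRNA arrays (adjusted p = 0.991). Cdk4, a kinase of the G1 phase, rose by 0.14 ± 0.037 (adjusted p = 0.0271), and missed the threshold after removal of Nup210 shRNA array 2 (0.0657), 5 (0.0551) or 6 (0.0508), of control array 1 (0.0549), 3 (0.063) or 4 (0.0566), and of Nup210 shRNA arrays 2, 4 and 5 together (0.314), with only the compared groups fitted (0.0826), on centred medians (0.0821) and in the unequal-variance test (0.0502). Bid, which carries the Fas signal to mitochondria, fell by 0.40 ± 0.055 (adjusted p = 0.000167). It was also called lower in Mef2c shRNA arrays (log2 difference -0.22 ± 0.055, limma adjusted p = 0.0156). Cdk2, a kinase that p21 inhibits, fell by 0.33 ± 0.058 in Nup210 shRNA arrays (adjusted p = 0.00115). The pore former Bak1 fell there by 0.21 ± 0.062 (adjusted p = 0.0437), and missed the threshold after the removal of any of 13 single arrays. These were 4 Nup210 shRNA arrays (2 to 5), 5 Mef2c shRNA arrays (all but 5) and 4 control arrays (1, 2, 4, 6). The adjusted p then lay between 0.0521 and 0.107, and it was 0.474 (log2 difference -0.11) without Nup210 shRNA arrays 2, 4 and 5 together.

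The Mef2c shRNA falls in that list were led by Cdkn1c, the p57 relative of Cdkn1a. Its levels were 6.33, 6.44 and 6.55 in Mef2c shRNA arrays, against 6.99, 7.12 and 7.14 in control arrays (log2 difference -0.64 ± 0.057 SE, limma adjusted p = 1.01e-06). The third member of that inhibitor family, Cdkn1b, differed by 0.01 ± 0.050 (adjusted p = 0.924). Rrm2, the S-phase counterpart of Rrm2b, fell by 0.28 ± 0.070 on its brightest probe set (adjusted p = 0.0138), but by 0.12 as the mean of its probe sets (adjusted p = 0.322). Casp8, the caspase that Fas activates, fell by 0.28 ± 0.066 (adjusted p = 0.0102). The rises were of Sesn3 (0.25 ± 0.055, adjusted p = 0.00535) and the survival protein Bcl2 (0.18 ± 0.045, adjusted p = 0.0121). Without control arrays 4 and 6 the list had 0 rises and 2 falls, Sesn3 (0.0536), Bcl2 (0.102), Rrm2 (0.113) and Casp8 (0.0817) losing their calls. Over all genes, 963 rises and 1423 falls then became 537 and 883. Bcl2 also lost its call as the mean of its probe sets (0.0589), and Rrm2 in the unequal-variance test (0.0551). Of 10 myotube markers, 0 rose and 4 fell for Nup210 shRNA and 0 rose and 2 fell for Mef2c shRNA; their summed log2 level was 15.09 to 15.23 in Nup210 shRNA arrays and 15.06 to 15.23 in Mef2c shRNA arrays, against 15.22 to 15.32 in control arrays, and its part in the p53 target differences was not tested. Reserve and satellite cell markers had 1 rise and 1 fall of 10 for Nup210 shRNA and 1 and 3 for Mef2c shRNA. Fibroblast markers had 2 and 0 of 8 and 1 and 1, and macrophage and endothelial markers 0 for either by limma. Over all genes 3.05% rose and 5.11% fell for Nup210 shRNA, and 4.34% and 6.42% for Mef2c shRNA. At an unadjusted p under 0.05, 1 macrophage marker was higher for Nup210 shRNA and 0 endothelial markers differed; 0 myotube and 0 cycling cell markers were higher at that level under either hairpin.

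**Figure D4:**
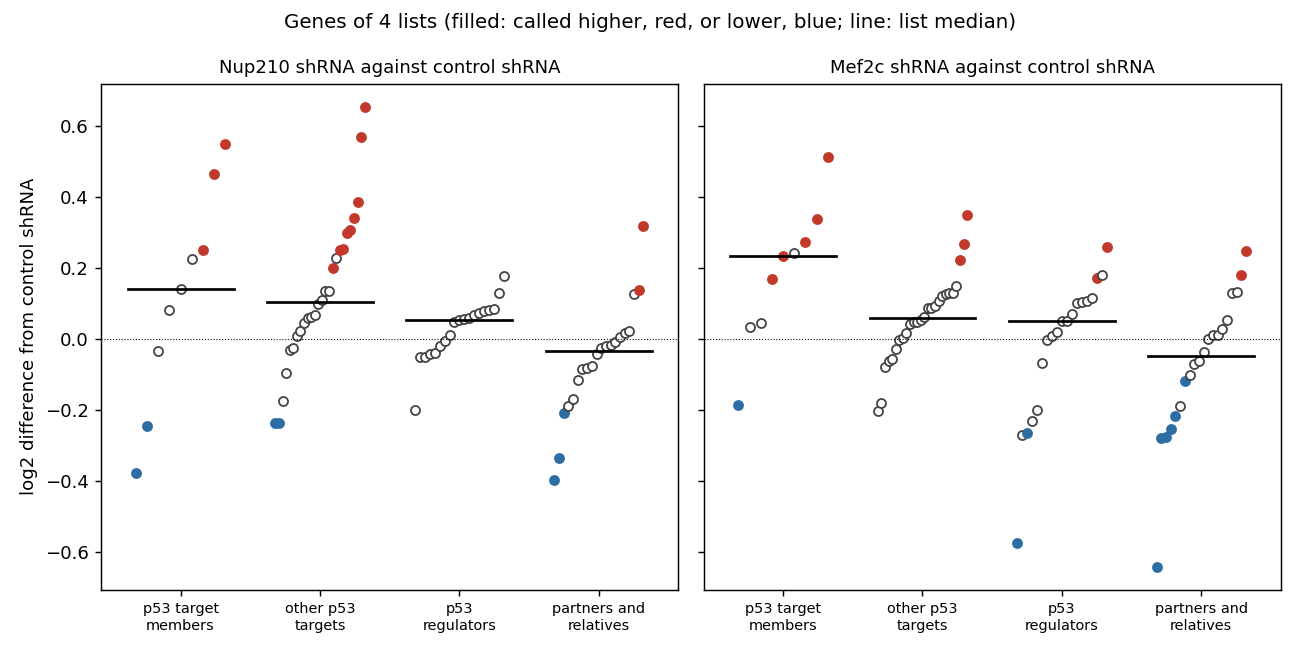
Log2 difference from control shRNA (vertical axis) of the genes in 4 lists, for Nup210 shRNA at left and Mef2c shRNA at right; filled points were called higher (red) or lower (blue) at a limma adjusted p under 0.05, and lines are list medians. The other p53 targets have 9 red and 2 blue points for Nup210 shRNA and 3 red points for Mef2c shRNA, and the p53 regulators have no filled point for Nup210 shRNA.

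The genes whose pattern was most like that of Cdkn1a over the 18 arrays were Sesn2 (Pearson r = 0.931), Myf5 (0.893), Jak1 (0.89), Erlin2 (0.866) and Aaas (0.865), among genes above the background guide. These are descriptions over 18 arrays that share group means. After the group means were removed the values were 0.853, 0.776, 0.773, 0.846 and 0.757. Sesn2, itself a p53 target, averaged 7.48 in Nup210 shRNA arrays, 7.23 in Mef2c shRNA arrays and 7.10 in control arrays, the same order as Cdkn1a. The means of Myf5, Jak1, Erlin2 and Aaas had that order too, and picking genes by their correlation with Cdkn1a favours it.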

How the data were processed

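Total RNA of 18 C2C12 samples was hybridised to one-colour arrays. The deposited values are log2 levels per probe set, made with RMA and Partek per the submitters' processing notes; the sources used here give no version, setting, genome build or scan date. RMA equalizes array distributions and compresses differences of dim genes. The number of arrays limits the precision. Of 41345 probe sets, 23521 had 1 symbol, 1814 several and 16010 none in the platform annotation; symbols were checked against the RefSeq table of GRCm38.p6 and 0 changed. The brightest probe set per gene gave 22180 genes.

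One limma model (3.58.1, under R 4.3.3) held all arrays, a mean for each group and no covariate, with 15 residual degrees of freedom, and was tested on simulated data; each adjusted p is Benjamini-Hochberg over all genes unless stated. The members and gene lists were chosen with earlier results of these data known. Named genes were all members, the p53 gene and Mdm4 (the first not analysed here), the targeted genes, per list and comparison with control the 3 largest called changes of each direction, and the 5 genes most correlated with Cdkn1a; others, such as Cdkn1b and the background markers, were picked with their values in view. Of the 30 other p53 targets and the 20 p53 regulators listed, 26 and 19 were measured. Same-numbered arrays correlated between groups, after group means were removed, at -0.219 to 0.459. Arrays numbered 5 were at 0.39 to 0.459 and those numbered 6 at 0.224 to 0.326, whereas numbers 2 and 4 included values below 0. The labels state no pairing and the main fit took none, but these values do not settle whether the numbers pair samples. Calls that changed with a replicate block are given under the processing results. Alternatives comprised a replicate block, other scalings, filters, probe set rules, priors, weights, thresholds and left-out arrays.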

Additional observations from a re-analysis of the deposited data

Results flagged for a closer look

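Levels of the 9 members and both targeted genes were searched for single arrays that stood apart in their group, in 33 combinations of gene and group, and 2 were found; chance gives about 1 in 20. Neither was of a p53 target. Mef2c in Mef2c shRNA array 5 was at 7.51, against 7.88 to 8.08 in the other Mef2c shRNA arrays. Nup210 in control array 6 was at 5.57, against 5.75 to 5.81 in the other control arrays.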

How the results depend on the processing

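Of the 27 log2 differences of members, each under 32 alternatives, 823 of 864 values kept their direction and their side of the threshold, 23 lost a call, 14 gained one and 4 turned sign. The turned signs were of differences that had not passed: Trp53inp1 between Nup210 and Mef2c shRNA ran from -0.0108 (without Nup210 shRNA array 2) to 0.0877 with single arrays left out, was -0.00851 without array 5 and -0.124 without arrays 2, 4 and 5; Sesn1 for Nup210 shRNA ran from -0.0699 to 0.00314 (without Nup210 shRNA array 4). Members called higher for Nup210 shRNA, 3 as reported, were 5 with the replicate block or a trended robust prior and 1 without Nup210 shRNA arrays 2, 4 and 5; members called lower, 2 as reported, were 1 without those arrays and 1 without control arrays 4 and 6. For Mef2c shRNA 5 rises became 2 at an adjusted p under 0.01 and 3 without control arrays 4 and 6, and 1 fall became 0 under each of these settings and in the unequal-variance test. Between the hairpin groups 0 rises became 1 with the replicate block and at an adjusted p under 0.1. With single arrays left out the counts ran from 3 to 4 higher and 2 to 2 lower for Nup210 shRNA, 4 to 5 and 0 to 1 for Mef2c shRNA, and 0 to 0 and 2 to 2 between them. The replicate block gave Mdm2 (adjusted p = 0.0352) and Fas (0.0372) calls for Nup210 shRNA and Zmat3 for Mef2c shRNA (0.0148) and between the hairpins (0.0191), and changed no other call of a member. Over all genes, 676 rises and 1133 falls for Nup210 shRNA became 153 and 410 without arrays 2, 4 and 5, 379 and 724 without control arrays 4 and 6, and 269 and 635 at an adjusted p under 0.01; centring on medians gave 445 rises. For Mef2c shRNA 963 rises and 1423 falls became 592 and 1601 on centring, 537 and 883 without control arrays 4 and 6, and 423 and 879 at the stricter threshold. Between the hairpins 1575 and 1538 became 971 and 928 at that threshold, and 995 fell without Nup210 shRNA arrays 2, 4 and 5. At an adjusted p under 0.1 rises were 1045 for Nup210 shRNA and 1505 for Mef2c shRNA. The causes were not tested beyond the fewer arrays or the other threshold that each setting names.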
